A study of Mus musculus with 90 samples.

Results

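CT26 is a mouse colon carcinoma line derived from the BALB/c strain. The comparison described here set chronic CT26 cells against naive CT26 cells, both collected 2 h after fresh interferon-γ (IFNγ) was added. Its members are 6 of the 90 samples of the series, chosen by the labelled line, weeks of exposure and hours of fresh IFNγ, and all genes were examined. Chronic cells had been kept in medium with 50 IU/mL of IFNγ for 3 weeks before the 2 h of fresh IFNγ (n = 3). Naive cells were cells of week 0 with no earlier exposure that received IFNγ for the same 2 h (n = 3). The other CT26 groups used below were untreated cells at 0 weeks and at 3 weeks, cells after 3 weeks of IFNγ without fresh IFNγ (labelled 0 h), cells given 2 h of IFNγ after 1 or 2 weeks, and chronic and naive cells after 24 h of fresh IFNγ, each with n = 3. The 2 groups compared differed both in earlier IFNγ and in 3 weeks of culture, so the shift of the untreated cells over 3 weeks is given beside the results. All groups are 1 established line in culture, without immune or stromal cells, and the labels speak of triplicate experiments without saying whether these were separate cultures. The study's reporting summary describes its replicates in general as biological and independent. Where these samples were not separate cultures, the p-values measure only a technical spread.

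Interferon-γ binds a receptor of 2 chains, Ifngr1 and Ifngr2, that carry the kinases Jak1 and Jak2. The kinases activate transcription factors that bind the GAS element of target promoters, and a first wave of induced factors led by IRF1 binds the ISRE element and drives a later wave. Targets include the proteasome and transport machinery of MHC class I presentation, the GTPases that defend the cell against intracellular microbes, antiviral effectors, and checkpoint ligands such as PD-L1. In tumour cells this pathway is known both to raise recognition by T cells and, when the signal is prolonged, to accompany resistance to checkpoint blockade.

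Digital gene expression libraries, which count the 3′ ends of transcripts, held 1183122, 792225 and 774388 counts in chronic replicates 1 to 3 and 1670341, 1417934 and 1598865 in the naive replicates, so every chronic library was shallower than every naive library. The 45 CT26 libraries ranged from 295157 to 2205285 counts, and the lowest was a 0 h library of cells after 3 weeks of IFNγ. Ribosomal protein genes took 14.55%, 12.58% and 13.27% of counts in chronic cells and 15.97%, 15.89% and 16.41% in naive cells. Transcripts encoded by mitochondrial DNA took 6.77% to 7.25% and 5.93% to 6.36%. Levels are counts-per-million values (CPM) with library sizes scaled by TMM, the factors being 1.065, 1.151 and 1.016 for chronic cells and 0.935, 0.963 and 0.944 for naive cells. Of 8 leukocyte markers, 5 were at 0 in all 6 libraries (summed level 2.58 to 7.57 CPM in chronic and 1.8 to 6.35 CPM in naive cells). Of 8 melanocyte markers, 4 were at 0 (49.9 to 51.8 against 15.5 to 30.6 CPM, most of it Gpnmb). Of 9 markers of colon epithelium, 5 (Epcam, Krt8, Krt19, Cdh1 and Vil1) were at 0 in all 6, so that the labelled tissue of origin rested on Krt20 and Krt18 (summed level 125 to 132 against 57.1 to 69.4 CPM). Of 6 fibroblast markers 1 was at 0, and of 4 endothelial markers 3 were at 0, with Pecam1 alone at 243 to 274 against 266 to 322 CPM. As in any bulk measurement, fewer cells expressing a gene and less RNA per cell cannot be told apart.

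Promoter windows from RefSeq (build GRCm38.p6, 250 bases before to 50 after the start) were searched on both strands for GAS (TTCNNNGAA), ISRE (GAAA and GAAA with any 2 bases between them) and AP-1 (TGANTCA). The following stretches belong to genes on which the results below turn. They were chosen to show the first-wave factor Irf1, GTPases that naive cells raised within 2 h, and the antiviral gene Ifit3 and immunoproteasome subunit Psmb8, which were among the largest differences. Capitals mark the match, and an ISRE read on the other strand appears as TTTC and TTTC with 2 bases between them.
Irf1, GAS, chr11:53769904-53769952 (+), 90 bases before the start: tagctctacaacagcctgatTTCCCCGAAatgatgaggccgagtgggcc
Igtp, GAS, chr11:58199491-58199539 (+), 45 bases before the start: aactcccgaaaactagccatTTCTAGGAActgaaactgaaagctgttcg
Igtp, ISRE, chr11:58199502-58199551 (+), 34 bases before the start: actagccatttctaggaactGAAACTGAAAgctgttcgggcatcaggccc
Irgm1, ISRE, chr11:48871421-48871464 (-), 24 bases before the start: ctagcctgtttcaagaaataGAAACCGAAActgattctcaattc
Gbp7, GAS, chr3:142530210-142530258 (+), 106 bases before the start: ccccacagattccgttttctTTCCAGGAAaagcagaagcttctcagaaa
Gbp7, ISRE, chr3:142530263-142530312 (+), 53 bases before the start: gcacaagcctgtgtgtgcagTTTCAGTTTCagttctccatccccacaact
Gbp2, ISRE, chr3:142620584-142620633 (+), 59 bases before the start: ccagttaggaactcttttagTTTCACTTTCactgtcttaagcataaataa
Gbp2b, ISRE, chr3:142594690-142594739 (+), 137 bases before the start: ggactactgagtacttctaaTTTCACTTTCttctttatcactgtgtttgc
Ifit3, ISRE, chr19:34583387-34583436 (+), 122 bases before the start: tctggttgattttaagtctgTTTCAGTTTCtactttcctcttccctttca
Psmb8, GAS, chr17:34198078-34198126 (+), 97 bases before the start: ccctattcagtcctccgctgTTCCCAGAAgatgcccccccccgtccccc

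Windows were found for 6404 of the 8516 genes tested, of which 7.87% held GAS, 4.12% ISRE and 5.64% AP-1. Of the genes higher in chronic cells, 282 of 365 had a window, and 12.4% of these held GAS, 17.7% ISRE and 9.22% AP-1. Of the genes lower in chronic cells, 364 of 511 had a window, and the shares were 6.87%, 4.67% and 7.69%. Of the 10 interferon-inducible GTPases with a window, 9 held ISRE and 6 held GAS, and of 29 antiviral genes 14 held ISRE and 7 held GAS. Of 16 class I presentation genes, 5 held ISRE and 1 held GAS, and of 54 ribosomal protein genes 7 held ISRE and 3 held GAS. Over all 32851 windows of this length the shares were 8.3% for GAS, 3.44% for ISRE and 7.81% for AP-1. GAS and ISRE matches overlapped each other in 24 of these windows, as they came close to doing in Igtp, and GAS and AP-1 matches overlapped in 15. A match describes letters in a window and not binding.

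In chronic cells after 2 h of fresh IFNγ, most tested members of the lists of interferon-inducible GTPases, class I presentation genes and antiviral genes were higher than in naive cells. Of 8516 genes tested, 876 passed an adjusted p of 0.05 (10.3%; quasi-likelihood test of edgeR, Benjamini-Hochberg adjusted), 365 higher (4.29%) and 511 lower (6.00%). The genes higher in chronic cells had a median log2 fold change of 1.41 and a median level of 4.49 log2 CPM. The genes lower in chronic cells had a median of -0.56 and a median level of 7.73 log2 CPM. At least 1 doubling was seen for 271 of the former, and a fall by at least 1 halving for 63 of the latter. The CPM of the 3 chronic and 3 naive samples did not overlap for 347 of the 365 and 504 of the 511, whereas over all genes tested 12.9% lay wholly above and 15.1% wholly below. The split between directions depended on scaling. With library totals in place of TMM factors 563 genes were higher and 186 lower, 75.2% of calls being higher in place of 41.7%, and the median of all genes moved from 0.05 to 0.23 on the log2 scale. Without chronic replicate 2, 408 genes passed, and without naive replicate 1, 502.

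Of the genes that carry the signal from the receptor, Stat2, part of the complex that type I interferon activates, was higher in every chronic sample, at 32.1, 43.3 and 21.8 CPM against 5.16, 9.6 and 3.34 CPM (2.44 ± 0.41 on the log2 scale, SE; adjusted p = 3.54e-05). Neither kinase nor receptor chain passed: Jak1 had a log2 fold change of 0.79 (adjusted p = 0.2), Jak2 of 1.10 (0.256), Ifngr1 of -0.49 (0.598) and Ifngr2 of 0.15 (0.94). Counts were low, with 10, 12 and 4 in chronic against 8, 7 and 3 in naive samples for Jak2. Ifngr1 had 11, 5 and 3 against 24, 7 and 9, and Ifngr2 had 4, 5 and 0 against 3, 3 and 6, so changes could have been missed. Irf9, the DNA-binding part of the same complex, was at 152, 133 and 138 CPM against 146, 171 and 177 CPM, and these ranges overlapped (-0.22 ± 0.13, adjusted p = 0.324).

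Of 11 induced transcription factors 6 were tested and 3 were higher, with a median of 1.55. Irf1, the first-wave factor, was at 116, 92.2 and 100 CPM in chronic cells and 83.9, 73.1 and 85.5 CPM in naive cells. The chronic samples all lay above the naive ones, but the difference of 0.35 ± 0.16 on the log2 scale did not pass (adjusted p = 0.179). Irf7, which amplifies type I interferon output, was at 52.1, 56.6 and 53.9 CPM against 2.58, 2.21 and 4.01 CPM, a log2 difference of 4.15 ± 0.33 (adjusted p = 4.16e-13). Batf2, an IFNγ-induced bZIP factor, rose from 1.94, 2.95 and 4.01 CPM to 20, 16.7 and 14.1 CPM (2.50 ± 0.52, adjusted p = 0.000919). Nlrc5, the transactivator of class I genes, was at 9.62, 14.4 and 7.69 CPM against 3.23, 0.738 and 2 CPM (2.33 ± 0.62, adjusted p = 0.0106). Its naive levels rest on few counts. Of 10 feedback inhibitors of JAK-STAT signalling, 7 were tested and 1 was higher, beside 4.29% of all genes. That gene was Usp18, an ISG15 protease that restrains the type I interferon receptor, at 56.9, 54.4 and 78.2 CPM against 10.3, 11.8 and 18 CPM (2.22 ± 0.26, adjusted p = 1.22e-08). Socs1, the kinase inhibitor induced by IFNγ, was at 6.41, 6.66 and 2.56 CPM against 1.29, 2.95 and 2 CPM, with overlapping ranges (1.34 ± 0.76, adjusted p = 0.283).

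The interferon-inducible GTPases, which attack the vacuoles of intracellular pathogens, held many of the largest differences. Of 18 listed genes 16 were tested, 14 were higher and 0 lower, with a median log2 fold change of 2.94. In all samples 15 lay above naive cells, beside 12.9% of all genes. Gbp4 was at 351, 400 and 536 CPM in chronic cells and 9.04, 5.17 and 8.01 CPM in naive cells (5.81 ± 0.27, adjusted p = 6.18e-21). Iigp1 was at 398, 402 and 433 CPM against 18.7, 27.3 and 23.4 CPM (4.15 ± 0.20, adjusted p = 3.97e-20). These levels were more than a factor of 10 apart and no pair of samples came close.
Gbp2 was at 357, 333 and 337 CPM against 18.7, 24.4 and 24.7 CPM (3.92 ± 0.18), Gbp3 at 136, 158 and 156 CPM against 12.9, 10.3 and 9.35 CPM (3.76 ± 0.19), and Gbp2b, outside the list, at 350, 359 and 367 CPM against 19.4, 24.4 and 36.7 CPM (3.73 ± 0.17). Gbp7 was at 315, 380 and 377 CPM against 42, 42.8 and 51.4 CPM (2.97 ± 0.16). The smallest of these differences was that of Irgm1, a regulator of the other immunity-related GTPases, at 651, 594 and 782 CPM against 430, 394 and 433 CPM (0.69 ± 0.11, adjusted p = 7.41e-06). Gbp5 and Gbp8 had 2 counts each over the naive group, and their ratios of chronic to naive CPM were 12.8 (95% exact interval 3.03 to 114) and 15 (3.65 to 133), intervals that cover counting error only. Guanylate-binding protein genes, and Tgtp1 and Tgtp2, have near-identical copies between which reads could be split, so values of single members are uncertain.

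**Figure D1:**
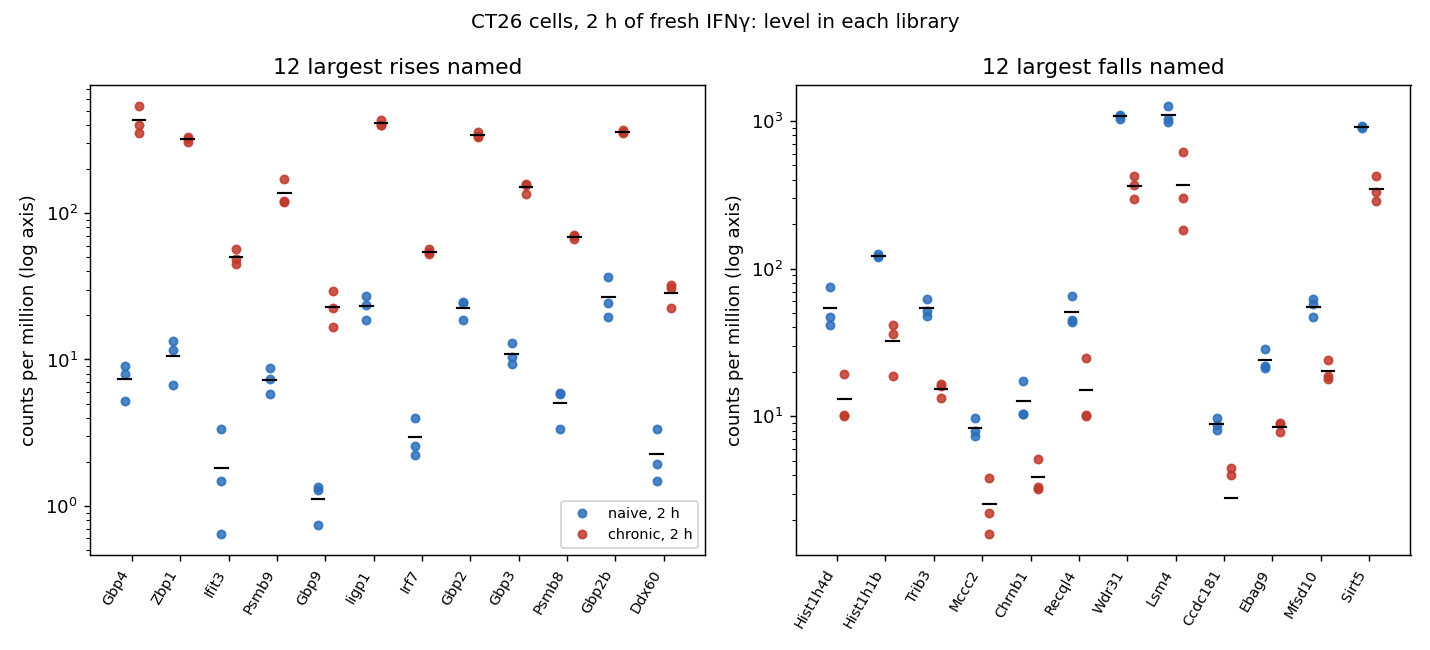
CPM in each library (log axis) of the 12 largest rises and the 12 largest falls among the named genes, with 3 chronic and 3 naive samples at 2 h as points and bars at their means. For Gbp4 the chronic samples sit between 351 and 536 CPM and the naive samples between 5.17 and 9.04 CPM; a library at 0, as for 1 chronic library of Ccdc181, is not drawn on the log axis.

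Genes of MHC class I presentation rose with them. Of 20 listed genes 19 were tested, 14 were higher and 0 lower, with a median of 1.93. The immunoproteasome subunit Psmb9 was at 171, 120 and 120 CPM in chronic cells and 5.81, 7.38 and 8.68 CPM in naive cells (4.23 ± 0.24, adjusted p = 8.03e-18). The partner subunit Psmb8 was at 69.8, 66.6 and 70.5 CPM against 5.81, 5.91 and 3.34 CPM (3.76 ± 0.32, adjusted p = 2.06e-12). The third, Psmb10, already had 94.2, 100 and 93.5 CPM in naive cells and was at 369, 325 and 331 CPM in chronic cells (1.83 ± 0.11), so that the subunits differed by unequal amounts. The proteasome activator Psme2 was at 1424, 1347 and 1548 CPM against 400, 388 and 343 CPM (1.93 ± 0.11, adjusted p = 1.47e-18). The peptide transporter subunit Tap1 was at 55.3, 62.2 and 17.9 CPM against 5.81, 8.12 and 9.35 CPM (2.56 ± 0.42, adjusted p = 2.65e-05), and the spread among its chronic samples was wide. Tapbp, which bridges the transporter to class I, was at 114, 140 and 74.4 CPM against 14.2, 26.6 and 20 CPM (2.45 ± 0.24).
Beta-2 microglobulin (B2m), the invariant class I light chain, was at 2518, 1991 and 2245 CPM against 836, 786 and 817 CPM (1.47 ± 0.13, adjusted p = 2.45e-11). Among heavy chains H2-K1 was at 164, 209 and 122 CPM against 40, 43.6 and 46.8 CPM (1.93 ± 0.21), and H2-D1 at 572, 576 and 550 CPM against 158, 180 and 180 CPM (1.71 ± 0.13). By contrast H2-T23, a non-classical heavy chain, was at 1161, 1228 and 1495 CPM against 1229, 1229 and 1191 CPM (0.09 ± 0.15, adjusted p = 0.773). Heavy chain genes are near-identical to each other, and reads could be assigned among them. None of 7 class II genes had enough counts to be tested.

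Of 36 antiviral interferon-stimulated genes 34 were tested, 27 were higher and 1 lower, with a median of 1.94. Zbp1, a sensor of Z-form nucleic acid, was at 306, 329 and 322 CPM in chronic cells and 11.6, 6.64 and 13.4 CPM in naive cells (4.89 ± 0.20, adjusted p = 2.07e-22). Ifit3, of a family that binds foreign RNA, was at 44.9, 48.9 and 56.4 CPM against 0.645, 1.48 and 3.34 CPM (4.70 ± 0.45, adjusted p = 6.91e-11). Its naive values come from single-digit counts. The ubiquitin-like modifier Isg15 was at 22.4, 20 and 15.4 CPM against 1.94, 0.738 and 2 CPM (3.54 ± 0.51), and Ube2l6, the enzyme that conjugates it, at 383, 281 and 430 CPM against 70.3, 87.9 and 74.8 CPM (2.23 ± 0.15, adjusted p = 1.86e-15). The helicase Ddx60 was at 22.4, 32.2 and 30.8 CPM against 1.94, 1.48 and 3.34 CPM (3.58 ± 0.45). Mx2 had 17 counts in chronic and 0 in naive cells, at least 8.52-fold higher against a floor of 3 counts over the naive group. The gene that fell was Samhd1, which depletes deoxynucleotides, at 1188, 1138 and 1381 CPM against 1772, 1514 and 1733 CPM (-0.44 ± 0.11, adjusted p = 0.00652), a call lost without chronic replicate 2.
All 6 interferon-induced PARPs and partners were higher, with a median of 2.55. These enzymes attach ADP-ribose to proteins. Parp14 was at 13.6, 40 and 12.8 CPM against 4.52, 5.17 and 0.668 CPM (2.65 ± 0.54, adjusted p = 0.000683), with chronic replicate 2 about a factor of 3 above the other chronic samples. Parp9 was at 34.5, 21.1 and 28.2 CPM against 5.16, 5.17 and 3.34 CPM (2.61 ± 0.38, adjusted p = 1.83e-06), and its ubiquitin ligase partner Dtx3l at 27.3, 32.2 and 26.9 CPM against 2.58, 8.86 and 4.01 CPM (2.49 ± 0.46). Parp12 was at 18.4, 31.1 and 16.7 CPM against 1.94, 3.69 and 2 CPM (3.08 ± 0.62), Parp10 differed by 2.14 and Parp11 by 1.70. No chronic sample fell into the naive range for any of the 6, whereas 12.9% of all genes lay wholly above.

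Among 23 checkpoint ligands, chemokines and adhesion genes 6 were abundant enough to test and 4 were higher, but 2 were without naive replicate 1. Cd274, which encodes PD-L1, was at 8.02, 14.4 and 23.1 CPM in chronic cells and 0.645, 1.48 and 5.34 CPM in naive cells (2.50 ± 0.58, adjusted p = 0.00302). The chemokine Cxcl10 was at 19.2, 20 and 11.5 CPM against 0, 7.38 and 2.67 CPM (2.37 ± 0.60, adjusted p = 0.00744). Lif, a cytokine of the IL-6 family, was at 10.4, 13.3 and 6.41 CPM against 1.29, 1.48 and 2 CPM (2.60 ± 0.62), and the macrophage growth factor Csf1 at 45.7, 97.7 and 56.4 CPM against 13.6, 42.8 and 38.7 CPM (1.07 ± 0.36, adjusted p = 0.0491). All 4 stood above naive cells in every sample but with wide spreads. Of 16 IFNγ-driven enzymes and death genes 9 were tested and 3 were higher, among them the pore-forming Gsdmd at 74.6, 62.2 and 71.8 CPM against 32.9, 39.9 and 35.4 CPM (0.95 ± 0.18, adjusted p = 0.000259). Casp1, the protease that cleaves it, was at 31.3, 44.4 and 21.8 CPM against 12.9, 10.3 and 12 CPM (1.46 ± 0.29, adjusted p = 0.000488). Of 22 NF-κB subunits and targets 12 were tested and 1 passed, beside 10.3% of all genes. That gene, Ier3, was at 29.7, 26.6 and 37.2 CPM against 20, 5.17 and 20 CPM (1.01 ± 0.33, adjusted p = 0.0432). Ier3 lost its call under 6 of 14 alternatives, among them leaving out naive replicate 2 or any 1 of the chronic replicates.

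Some members of lists outside the interferon genes were also higher. Of 26 genes of TGFβ signalling and its targets, 18 were tested, 8 were higher and 0 lower, with a median of 0.85. Pmepa1, a feedback inhibitor of the pathway, was at 27.3, 40 and 15.4 CPM in chronic cells and 6.45, 4.43 and 2 CPM in naive cells (2.66 ± 0.52, adjusted p = 0.000364). Ccn1, a matricellular protein, was at 61.7, 72.2 and 42.3 CPM against 16.8, 33.2 and 24 CPM (1.27 ± 0.23, adjusted p = 9.84e-05). Smad7, the inhibitory SMAD, was at 6.41, 13.3 and 7.69 CPM against 0, 2.95 and 2 CPM (2.42 ± 0.78, adjusted p = 0.037), and Skil, a SMAD co-repressor, at 18.4, 18.9 and 24.4 CPM against 7.1, 4.43 and 8.01 CPM (1.62 ± 0.33). Of the genes named, Pmepa1, Smad7 and Skil are inhibitors of the pathway. The count was 5 without any 1 of the naive replicates, 6 without chronic replicate 1 or 2 and 10 with library totals.
Of 20 EGFR ligands and MAPK feedback genes 10 were tested and 3 were higher, with all 10 estimates above 0. The EGFR ligand Ereg was at 58.5, 60 and 44.9 CPM against 16.8, 24.4 and 15.4 CPM (1.54 ± 0.24, adjusted p = 9.61e-06), and Hbegf differed by 1.35 ± 0.30. Errfi1, which inhibits the receptor, was at 95.4, 112 and 65.4 CPM against 40, 31.8 and 38.1 CPM (1.32 ± 0.26, adjusted p = 0.00049). Of 24 immediate-early genes 13 were tested and 3 were higher, and 9 lay above naive cells in all samples beside 12.9% of all genes. Junb was at 49.7, 41.1 and 65.4 CPM against 27.8, 23.6 and 20 CPM (1.11 ± 0.25, adjusted p = 0.00194). Egr1 was at 19.2, 30 and 8.98 CPM against 3.87, 7.38 and 6.01 CPM (1.77 ± 0.50, adjusted p = 0.0163), and lost its call without naive replicate 1 and without chronic replicate 2, each of which left 1 immediate-early gene called.

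Krt20, an intestinal keratin, was the 1 called gene of 4 tested among 21 keratin and epithelial genes. It was at 114, 97.7 and 106 CPM in chronic cells and 49, 42.1 and 52.1 CPM in naive cells (1.15 ± 0.15, adjusted p = 2.82e-07). Of 34 matrix and integrin genes 20 were tested, and 4 were higher and 3 lower. Itga6, the laminin-binding integrin chain, was at 44.9, 67.7 and 30.8 CPM against 11, 9.6 and 17.4 CPM (1.91 ± 0.44, adjusted p = 0.00239), and Itgb5 at 10.4, 21.1 and 11.5 CPM against 3.23, 5.17 and 4.01 CPM (1.77 ± 0.53). Falling in turn were Sparc, a collagen-binding matrix protein, from 97.5, 93.8 and 92.8 CPM in naive cells to 60.9, 58.9 and 52.6 CPM in chronic cells (-0.71), and the collagen crosslinker Loxl2, from 652, 583 and 604 CPM to 435, 391 and 464 CPM (-0.51). Sparc lost its call with library totals and with the libraries thinned to 1 depth (highest adjusted p = 0.12). Without chronic replicate 2, 1 matrix gene was higher and 2 were lower, and 1, 2 and 1 were higher without naive replicates 1, 2 and 3. Of 30 replication and mitosis genes none was higher and 3 were lower, beside 4.29% and 6.00% of all genes. Plk1, among these 3, was at 35.3, 45.5 and 42.3 CPM against 79.4, 70.1 and 59.4 CPM (-0.78 ± 0.16, adjusted p = 0.00102). Plk1 kept its call under each of 14 alternatives, but 1 gene of the list was lower in place of 3 without any 1 of the 6 libraries, and with library totals 1 was lower and 1 higher. The median of that list was -0.06, and it turned to 0.12 with library totals. Mdm2, the p53 target and inhibitor, was at 103, 107 and 79.5 CPM against 41.3, 48 and 41.4 CPM (1.15 ± 0.18, adjusted p = 9.42e-06) and was 1 of 2 genes higher among 10 tested for G1 control and p53, the other being Ccng1, whose samples overlapped (1.04, adjusted p = 0.0415) and which lost its call under 6 of 14 alternatives.

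The metabolic lists leaned downward, where over all genes tested 4.29% were higher and 6.00% lower. Genes called lower had a median level of 7.73 log2 CPM, and the lists were not matched to other genes by level. Of 26 glycolysis and hypoxia genes 22 were tested, 0 were higher and 9 lower, with a median of -0.33. Triose phosphate isomerase (Tpi1) was at 412, 332 and 374 CPM in chronic cells and 666, 649 and 706 CPM in naive cells (-0.85 ± 0.12, adjusted p = 1.15e-06). Bnip3, a hypoxia-induced mitophagy receptor, was at 42.5, 53.3 and 28.2 CPM against 117, 106 and 97.5 CPM (-1.35 ± 0.21, adjusted p = 1.01e-05). Pgk1 (-0.63 ± 0.12), Ldha (-0.45 ± 0.10) and Gapdh (-0.52 ± 0.15) also fell, by modest amounts. Of 27 sterol and fatty acid synthesis genes 24 were tested, 1 was higher and 6 lower, with a median of -0.49. Fdps, which makes farnesyl diphosphate, was at 314, 248 and 290 CPM against 526, 456 and 470 CPM (-0.77 ± 0.16, adjusted p = 0.00129), and Msmo1 at 204, 143 and 198 CPM against 294, 269 and 262 CPM (-0.59). Acaca, the first enzyme of fatty acid synthesis, was called in the opposite direction (1.02, adjusted p = 0.0343), but its samples overlapped and it lost the call under 9 of 14 alternatives, among them leaving out any 1 of the naive replicates or chronic replicate 1 or 2.
Of 23 ATF4 and ER stress genes 21 were tested, 0 were higher and 8 lower, with a median of -0.42. Trib3, a pseudokinase induced by ATF4, was at 16, 13.3 and 16.7 CPM against 51.6, 48 and 62.1 CPM (-1.81 ± 0.24, adjusted p = 3.6e-07). Phgdh, which opens serine synthesis, was at 488, 374 and 464 CPM against 785, 760 and 783 CPM (-0.81 ± 0.10), and Atf4 itself at 164, 200 and 135 CPM against 295, 270 and 258 CPM (-0.72). With library totals 5 glycolysis, 3 sterol and 6 ATF4 genes were lower, and without chronic replicate 2 the counts were 5, 3 and 7. Without naive replicate 1, 3 sterol genes were lower. Of 11 heat shock genes 8 were tested, 1 was higher (Hsph1, 0.76) and 1 lower (Hspe1, -0.36), beside 4.29% and 6.00% of all genes. Neither was called without naive replicate 1 or without chronic replicate 2. The call of Hsph1 was also lost without naive replicate 3 or chronic replicate 1 or 3. The sign of the list's median depended on scaling.

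Of 74 cytosolic ribosomal protein genes, all tested, 0 were higher and 49 lower, with a median of -0.45, and 70 lay below naive cells in all samples beside 15.1% of all genes. Rps10 was at 538, 420 and 542 CPM in chronic cells and 1144, 1049 and 965 CPM in naive cells (-1.07 ± 0.12, adjusted p = 1.49e-08). Rpl27a was at 828, 635 and 859 CPM against 1671, 1556 and 1581 CPM (-1.05 ± 0.15, adjusted p = 1.39e-06). TMM factors were higher and depth was lower in every chronic library than in every naive one. With library totals 12 were lower and the median was -0.27, with RLE factors 40 were lower, and with the 6 libraries thinned to 1 depth 34 were lower with a median of -0.42. Chronic replicate 2 had the lowest ribosomal share and the highest TMM factor, and without it 7 were lower and the median was -0.35. Without naive replicate 1, 29 were lower with a median of -0.41. Ribosomal genes have many processed copies that could share reads.
Of 49 nuclear genes for the respiratory chain and ATP synthase, 0 were higher and 9 lower, beside 4.29% and 6.00% of all genes. The list's median of -0.17 turned to 0.02 with library totals, when 3 genes were called in each direction. Without naive replicate 2 or chronic replicate 2, 5 and 4 were lower. Ndufa4 was at 686, 572 and 692 CPM against 1486, 1308 and 1345 CPM (-1.08 ± 0.10, adjusted p = 9.65e-11) and Atp5g3 at 651, 574 and 669 CPM against 1182, 1114 and 1126 CPM (-0.85 ± 0.11, adjusted p = 2.07e-07). Of 13 transcripts encoded by mitochondrial DNA 1 was higher and 1 lower, beside 4.29% and 6.00% of all genes. mt-Co1 was at 2462, 3611 and 2930 CPM against 1596, 1956 and 2118 CPM (0.67 ± 0.15, adjusted p = 0.00179), a call lost without chronic replicate 2. mt-Nd1 was at 6528, 5123 and 5980 CPM against 9294, 9051 and 8982 CPM (-0.63 ± 0.11, adjusted p = 8.29e-05). mt-Nd3 was at 0 in all chronic libraries and at 18.1, 6.64 and 6.01 CPM in naive cells, at least 10.2-fold lower against 3 counts over the group, with an adjusted p of 0.0732.

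Trib3 apart, the largest falls among the named genes lay outside these lists. The replication-dependent histone genes Hist1h1b and Hist1h4d were at 41.7, 18.9 and 35.9 CPM against 121, 125 and 121 CPM (-1.90 ± 0.43, adjusted p = 0.00206) and at 19.2, 9.99 and 10.3 CPM against 41.3, 75.3 and 46.8 CPM (-1.97 ± 0.63, adjusted p = 0.0371). Their transcripts mostly lack the poly(A) tail on which 3′ libraries usually depend, and Hist1h4d has near-identical copies. Sirt5, a mitochondrial desuccinylase, was at 427, 285 and 328 CPM against 906, 932 and 898 CPM (-1.39), and Wdr31, a WD-repeat protein, at 425, 368 and 296 CPM against 1040, 1087 and 1101 CPM (-1.56). Lsm4, of the ring that binds U6 RNA, was at 617, 183 and 299 CPM against 1258, 989 and 1034 CPM (-1.56), with its chronic samples far apart. The helicase gene Recql4 was at 24.9, 9.99 and 10.3 CPM against 65.2, 45 and 43.4 CPM (-1.68). Ebag9 was at 8.82, 7.77 and 8.98 CPM against 21.3, 28.8 and 22 CPM (-1.48), and Mccc2, Chrnb1, Ccdc181 and Mfsd10 differed by -1.75, -1.72, -1.51 and -1.42. Wdr31 kept its call under each of 14 alternatives, whereas Chrnb1, Mccc2, Lsm4, Hist1h4d and Ccdc181 lost theirs under 8 to 11 of the alternatives that could be fitted.

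**Figure D2:**
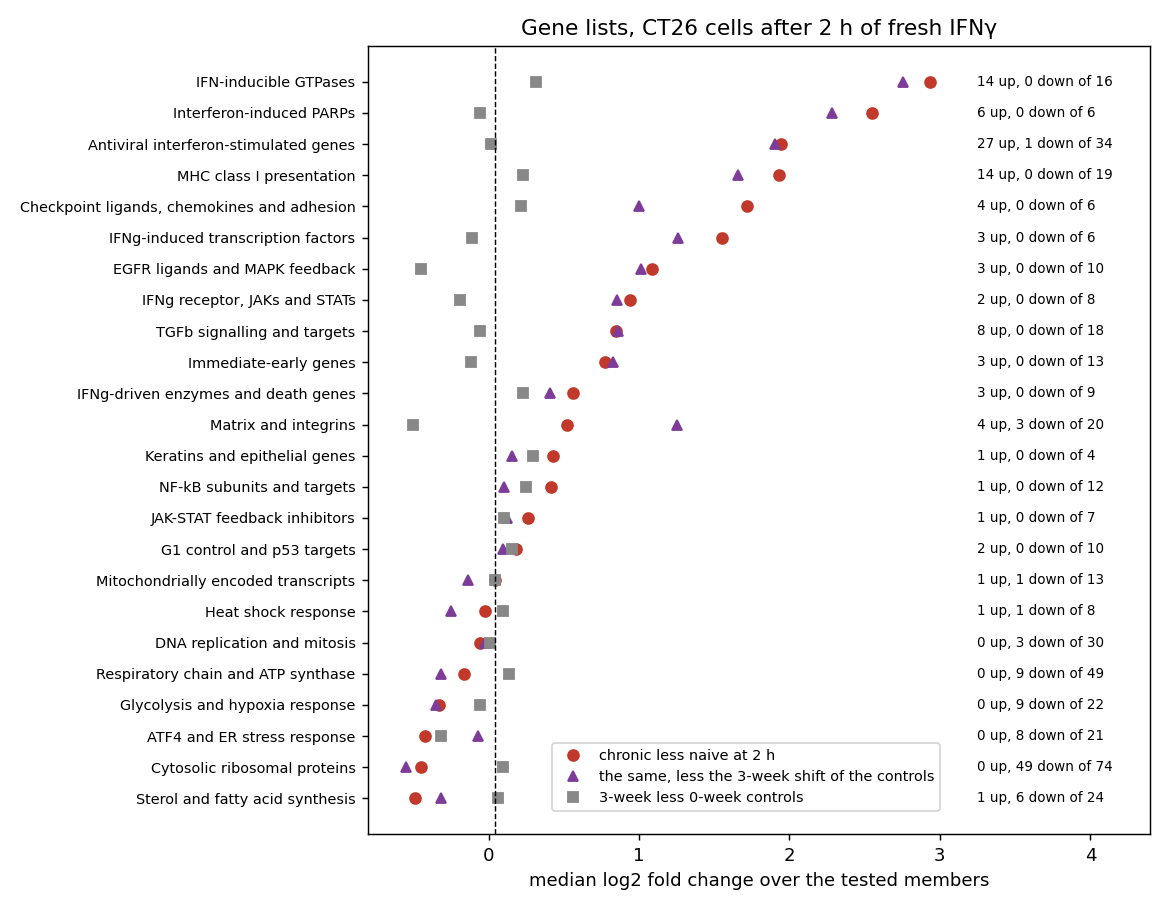
Median log2 fold change over the tested members of each gene list (horizontal axis) for chronic less naive cells at 2 h, for that difference less the 3-week shift of the untreated cells, and for the 3-week shift itself. The GTPases sit at 2.94, 2.76 and 0.31 and the ribosomal protein genes at -0.45, -0.55 and 0.10.

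Whether these differences exceeded what 3 weeks of culture brought was asked by subtracting the shift of untreated cells between 0 and 3 weeks. In the untreated cells 78 genes differed (0.916%), 49 higher (0.575%) and 29 lower (0.341%) after 3 weeks, and the count was 31 to 51 with any 1 of the 6 untreated libraries left out. Of the 365 genes higher in chronic cells 20 were among the 49 (5.48% and 40.8% of the lists), and of the 511 lower genes 19 were among the 29 (3.72% and 65.5%). After subtraction 331 genes passed (3.89%), 161 higher (1.89%) and 170 lower (2.00%), and 100 to 490 with 1 library left out, the fewest without chronic replicate 2.
The interferon lists had medians close to those before subtraction. GTPases had 8 genes higher with a median of 2.76, class I presentation 11 with 1.66 and antiviral genes 15 with 1.90. For Gbp4 the remaining difference was 4.72 (adjusted p = 3.47e-05) and for Zbp1 4.03 (1.75e-08). Tap1 did not pass after subtraction (2.03, adjusted p = 0.171), nor did Parp14 (4.23, 0.104), and 1 of the 6 PARPs did. Subtraction also widened the errors, the SE of Gbp4 going from 0.27 to 0.74 and that of Stat2 from 0.41 to 0.82. The untreated cells had shifted by -0.21 for Stat2, so a lost call need not mean a large shift of the untreated cells. Cd274, which had 0 counts in all untreated libraries at 0 weeks and up to 1.48 CPM at 3 weeks, had an estimate of -0.40 (adjusted p = 0.651) that rests on those low counts.
For some other genes little was left. Of the ATF4 and ER stress genes 1 was lower after subtraction with a median of -0.07, and in the untreated cells 3 of them fell over 3 weeks. Trib3 had -0.45 left (adjusted p = 0.479), Mdm2 0.18 and Id2, a TGFβ-responsive inhibitor of bHLH factors that had differed by 0.97, -0.25. Other genes named above did not pass after subtraction either. Among them were Ereg (1.02, adjusted p = 0.085), Junb (0.78, 0.2), Casp1 (0.73, 0.383), Bnip3 (-0.51, 0.308) and Plk1 (-0.225, 0.607). Stat2 (2.65, 0.0554), Egr1 (2.37, 0.0611) and Lif (2.14, 0.157) did not pass although their estimates stayed large. By contrast Errfi1 (2.12, adjusted p = 0.000434), Krt20 (0.82, 0.0229) and Fdps (-1.14) still passed, Krt20 losing the call under 5 of 19 alternatives. Of ribosomal protein genes 21 were lower with a median of -0.55, and of glycolysis genes 6 with a median of -0.35. The ribosomal genes named above, Rps10 (-0.56, adjusted p = 0.0546) and Rpl27a (-0.50, 0.156), did not pass after subtraction. Their shifts in the untreated cells were -0.51 and -0.55.

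A second question is whether chronic cells responded to the 2 h of fresh IFNγ as naive cells did. Naive cells raised 20 genes over untreated cells and lowered 0 (0.235%, with 310 at an unadjusted p under 0.05). Chronic cells raised 1 gene over their own 0 h level, Krt20 (0.0117%, with 618 at an unadjusted p under 0.05), and DESeq2 called 11. The chronic 0 h libraries held 295157 to 1080409 counts, against 1458270 to 1677329 in the untreated libraries of week 0. Responses of chronic cells could thus have been missed more often. The difference between the responses, tested directly, passed for 18 genes (0.211%), with 1 response larger in chronic cells (0.0117%) and 17 smaller (0.200%), and 463 had an unadjusted p under 0.05. Of the 16 tested members of the GTPase list 10 were among the 17, beside 0.200% of all genes, and Gbp2b, outside the list, was another.
For Irf1 the mean was 7.305 CPM in untreated cells, 80.82 CPM in naive cells at 2 h, 75.62 CPM in chronic cells without fresh IFNγ and 102.8 CPM in chronic cells at 2 h. The response was thus smaller by 3.01 on the log2 scale in chronic cells (-3.01 ± 0.30, adjusted p = 2e-09), while the end level differed by 0.35. For Irgm1 the means in the same groups were 82.46, 418.7, 528.4 and 675.8 CPM (-1.99 ± 0.16, adjusted p = 8.37e-12). The difference in response was -3.36 for Gbp7, -2.56 for Igtp, -2.53 for Gbp2b, -1.92 for Gbp3 and -1.88 for Gbp2. These are ratios to each group's own level before fresh IFNγ, which was higher in chronic cells. Mean Gbp2 went from 4.41 to 22.6 CPM in naive cells and from 259.7 to 342.4 CPM in chronic cells. In mean CPM the rise was larger in chronic cells for Gbp2, Gbp2b, Gbp3 and Igtp and smaller for Irf1, Irgm1 and Gbp7, which was not tested.
Krt20 had the larger response in chronic cells. It was at 45.4, 50 and 48.1 CPM in untreated cells, 49, 42.1 and 52.1 CPM in naive cells at 2 h, 47.4, 46.2 and 36.8 CPM in chronic cells without fresh IFNγ and 114, 97.7 and 106 CPM in chronic cells at 2 h. The 3 samples of the last group lay above all others of these groups, and the response was larger by 1.24 (adjusted p = 0.00261). At 2 h Krt20 also differed from naive cells after 2 weeks of IFNγ (0.79, adjusted p = 0.000423 by edgeR), but not after 1 week (-0.04, 0.959). After 24 h of fresh IFNγ chronic cells were at 62.2, 57.6 and 50.3 CPM. Tiparp, an ADP-ribosyltransferase, had mean levels of 26.61, 35.9, 87.1 and 58.57 CPM in the same order of groups (-0.99, adjusted p = 0.0307), and its untreated cells rose from 24.8, 31.2 and 23.8 CPM to 50.7, 51.7 and 48.2 CPM over 3 weeks. Its call was lost under 13 of 19 alternatives, that of Gbp3 under 4, and those of Gbp2 and Iigp1 under 1 each (without untreated replicates 2 and 3), whereas those of Irf1, Irgm1, Gbp7, Igtp and Krt20 were kept in all that were run.

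**Figure D3:**
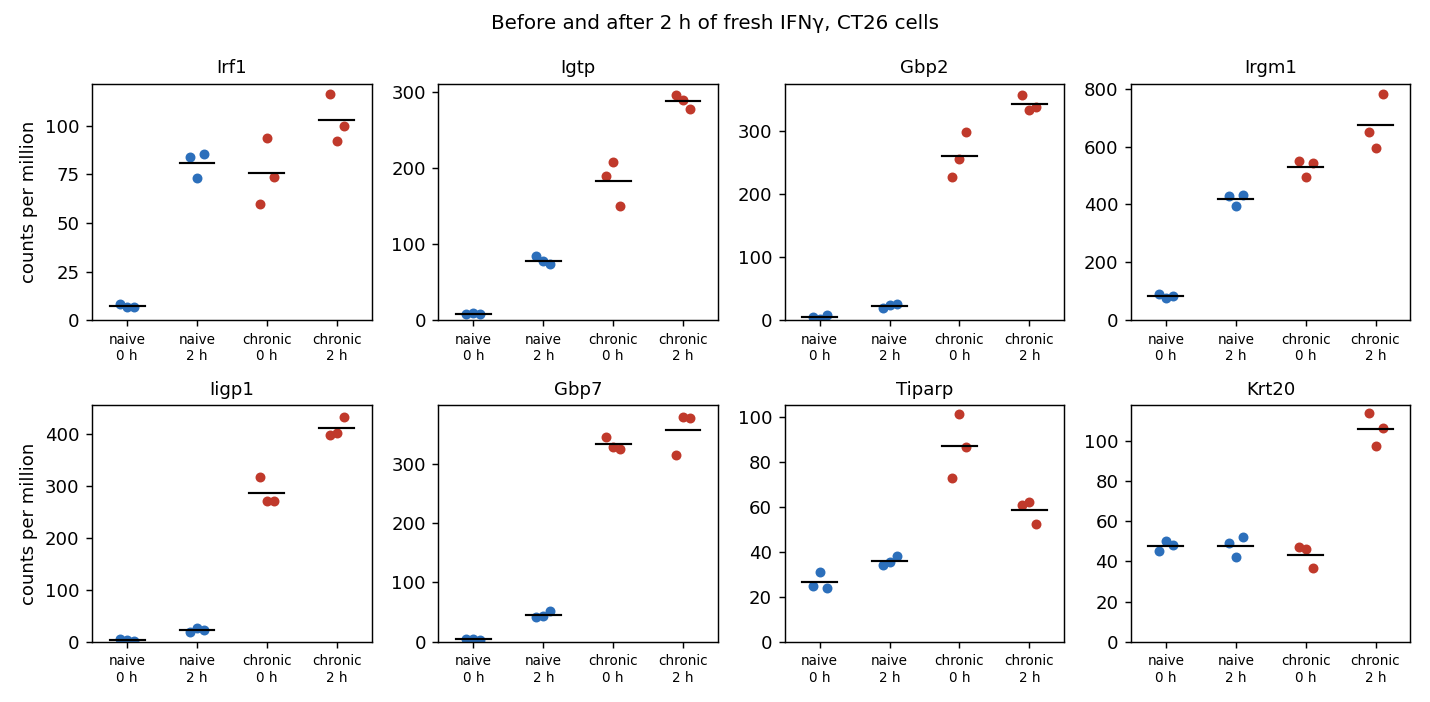
CPM (axis from 0) of genes named for the difference in response, in untreated cells of week 0 (naive, 0 h), naive cells at 2 h, chronic cells without fresh IFNγ (chronic, 0 h) and chronic cells at 2 h, with each sample as a point and the mean as a bar. Irf1 has means of 7.305, 80.82, 75.62 and 102.8 CPM, and Krt20 has means of 47.83, 47.74 and 43.48 CPM in the first 3 groups and 106 CPM in the last.

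The same lists were followed over weeks and hours. Without fresh IFNγ, cells after 3 weeks of IFNγ differed from untreated cells at the start in 559 genes (6.56%), 262 higher (3.08%) and 297 lower (3.49%), in samples that the 2 h comparison does not use, and in 370 without untreated replicate 1 and 348 without chronic 0 h replicate 2. Of the genes higher at 2 h, 164 were also higher there (44.9% of 365 and 62.6% of 262), and of the genes lower at 2 h 183 were lower (35.8% of 511 and 61.6% of 297). GTPases had 14 genes higher with a median of 5.18, antiviral genes 28 higher and 2 lower with a median of 2.43, and ribosomal protein genes 7 lower with a median of -0.24. When naive cells too had 24 h of fresh IFNγ, chronic cells differed in 211 genes (2.48%), 41 higher (0.481%) and 170 lower (2.00%). The naive libraries at 24 h held 519097, 618598 and 1337965 counts, with ribosomal shares of 12.37%, 13.25% and 15.16%. How far their depth affected the number of calls was not tested. At 24 h GTPases had 4 genes higher with a median of 0.48, class I genes 4 with 0.32, and antiviral genes 0 higher and 2 lower with a median of -0.03. Of the genes lower at 2 h, 106 were lower at 24 h (20.7% of 511 and 62.4% of 170), and 20 of the higher genes were higher (5.48% of 365 and 48.8% of 41).
At 2 h, cells exposed for 1 week differed from naive cells in 137 genes (1.61%), 96 higher (1.13%) and 41 lower (0.481%). Cells exposed for 2 weeks differed in 178 (2.09%), 105 higher (1.23%) and 73 lower (0.857%). Both comparisons use the same naive samples as the one at 3 weeks. The mean GTPase level was 4.12 ± 0.20 log2 CPM (SD, n = 3) in naive cells, 5.55 ± 0.12 after 1 week, 5.76 ± 0.20 after 2 weeks and 6.67 ± 0.10 after 3 weeks. Class I genes stood at 5.0 ± 0.11, 6.32 ± 0.03, 6.50 ± 0.04 and 6.79 ± 0.08 log2 CPM. The antiviral mean was 4.03 ± 0.05 at the start, 5.25 ± 0.07 and 4.89 ± 0.09 after 1 and 2 weeks and 5.73 ± 0.11 after 3 weeks, an order that did not rise at every step. The samples after 1 and 2 weeks overlapped for the GTPases but not for the class I or the antiviral list. TGFβ genes stood at 3.79 ± 0.07 log2 CPM in naive cells, 4.41 ± 0.18 and 4.20 ± 0.21 after 1 and 2 weeks and 4.49 ± 0.29 after 3 weeks, when 1 chronic sample lay below the range after 1 week. Glycolysis genes were at 7.01 ± 0.12, 6.87 ± 0.06, 6.96 ± 0.08 and 6.66 ± 0.02 log2 CPM, and only after 3 weeks did all samples lie below all naive ones. Ribosomal protein genes were at 10.8 ± 0.02, 10.5 ± 0.20, 10.8 ± 0.14 and 10.4 ± 0.16 log2 CPM, and all samples lay below all naive ones after 1 and 3 weeks but not after 2.

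**Figure D4:**
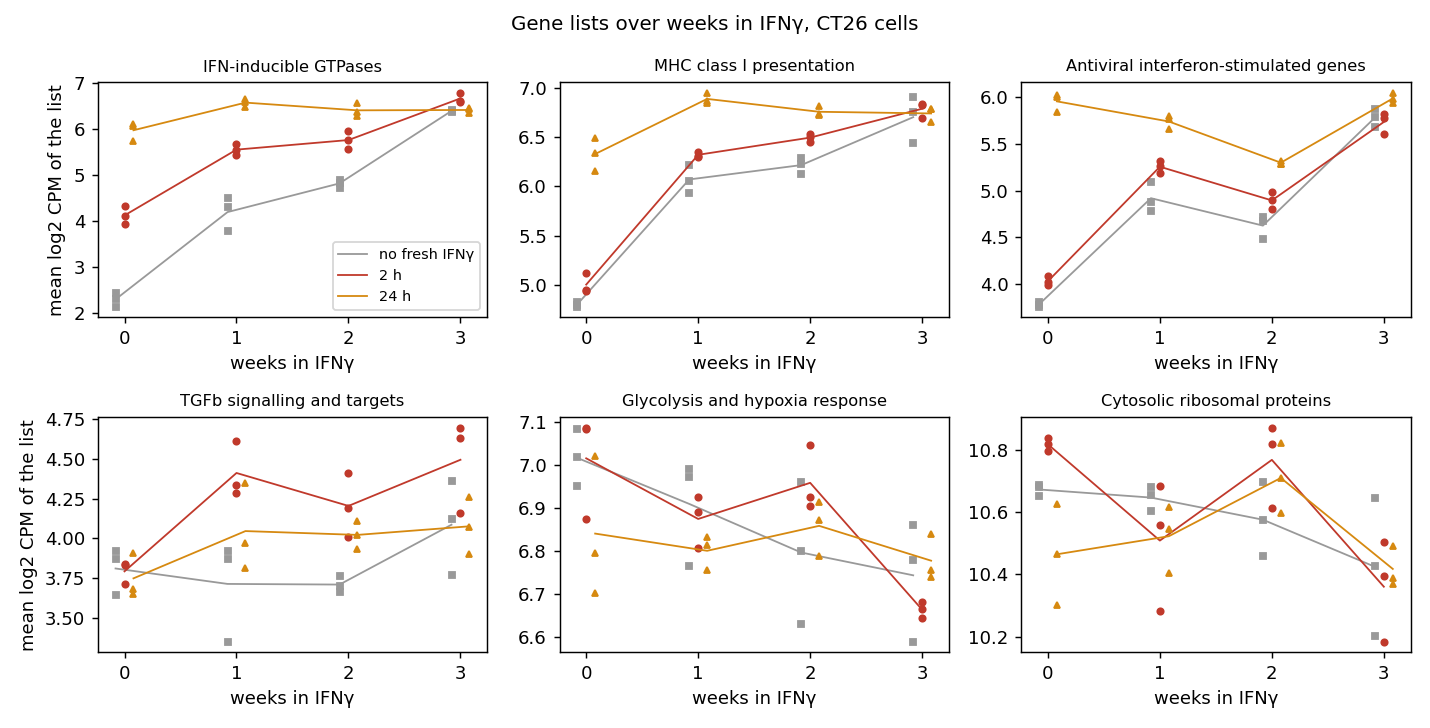
Mean log2 CPM of gene lists (vertical axes) against weeks in IFNγ (horizontal axes), with lines for cells given no fresh IFNγ, 2 h and 24 h, and each sample as a point. At 2 h the GTPase mean lies at 4.12 in naive cells and 6.67 after 3 weeks, and the naive cells at 24 h lie at 5.97.

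YUMM2.1, a mouse melanoma line treated in the same way, gave 857 genes in its own comparison of chronic with naive cells at 2 h (8.29% of 10339 tested in both lines together), 381 higher (3.69%) and 476 lower (4.60%). The difference between the lines passed for 49 genes (0.474%), 23 with the more positive difference in CT26 (0.222%) and 26 with the more positive in YUMM2.1 (0.251%), and for 16 to 30 with any 1 of the 12 libraries left out. H2-D1 differed by 1.69 in CT26 and 3.51 in YUMM2.1, so that CT26 was lower by 1.82 (-1.82 ± 0.23, adjusted p = 1.44e-07). Ifit3 had the opposite order, 4.69 in CT26 and 1.96 in YUMM2.1 (2.73 ± 0.51, adjusted p = 0.00148), as did Gbp2 (3.90 and 2.51). The study implanted the lines in mice of different strains, whereas the processing notes name the mm10 build for both. Whether strain affected the counts of H2-D1 was not tested. Sirt5 fell in CT26 (-1.41) with an estimate of 0.25 in YUMM2.1 (adjusted p of the difference 1.44e-07), and Ybx1, a cold-shock RNA-binding protein, fell in CT26 (-0.82) and rose in YUMM2.1 (0.99). In CT26 Ybx1 had been at 167, 261 and 115 CPM against 320, 308 and 316 CPM. It also fell in untreated CT26 cells over 3 weeks (-1.38, adjusted p = 2.06e-05 by edgeR). After subtraction of that shift the CT26 estimate was 0.585 (adjusted p = 0.201). The differences between the lines carry no such subtraction. Of the class II genes, not tested in CT26 alone, 4 were tested in YUMM2.1 and all 4 were higher there. They had too few counts for the CT26 filter and could have entered the fit of both lines only through YUMM2.1 groups where they were high. Their count therefore does not compare the lines. Of the 74 ribosomal protein genes 22 were lower in YUMM2.1, their median being -0.39, and the lines differed for 1 of them, Rps10 (-0.79).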

How the data were processed

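RNA of 3 replicates per group was isolated with the RNeasy kit and sequenced as 60 bp paired-end 3′ digital gene expression libraries. The values are counts per gene as deposited by the authors, with no normalization. The submitters' processing notes name Salmon 0.13.1 and the mouse build mm10. A symbol was matched to 53668 of the 53697 genes listed. The study removed some libraries as outliers without naming them in the sources used here, so all 90 were kept.

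Counts of the 45 CT26 libraries (15 groups of 3) were fitted in 1 model with edgeR 4.0.16 in R 4.3.3 (filterByExpr, TMM factors, quasi-likelihood test, Benjamini-Hochberg threshold 0.05 over 8516 genes). The lines were compared in 1 fit of all 90 libraries (10339 genes). The scripts were tested on simulated data. SE is the log2 fold change over the square root of F. With few counts a group at 0 was set against 3 counts, and groups of 1 to 3 counts were given as ratios with 95% exact intervals, which cover counting error only. Levels of single genes were not compared with each other, and the median levels of called genes are in CPM, not per length. Chronic libraries held 774388 to 1183122 counts and naive libraries 1417934 to 1670341, which limits precision for genes of few counts.

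Named genes were the 12 largest rises and 12 largest falls among called genes with non-overlapping CPM and at least 10 counts in each sample of the higher group, up to 2 rising and 2 falling members of each of 25 lists by p, and the 5 smallest p of each difference. Some results for 1 gene are not reported here. Further list members were named for their known roles with their values in view. The lists and the comparison were chosen with earlier results of these data known. Alternatives were DESeq2 1.42.0, RLE factors or library totals, no filter on low counts, fits of only the compared groups, a replicate block, each library left out in turn, no library under 25% of the line's median total, a log2 fold change of at least 0.5, and a prior count of 0.5 in place of 2 for list levels. Thinning the 6 libraries to 1 depth was added after seeing the data.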

Additional observations from a re-analysis of the deposited data

Results flagged for a closer look

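The 2 h response to fresh IFNγ differed between chronic and naive CT26 cells for the following named genes, by a direct test of the difference. As a ratio to the level before fresh IFNγ, it was smaller in chronic cells by a log2 difference of -3.36 for Gbp7, -3.01 for Irf1, -2.56 for Igtp, -2.53 for Gbp2b, -2.21 for Iigp1, -1.99 for Irgm1, -1.92 for Gbp3 and -1.88 for Gbp2. It was larger for Krt20, by 1.24. In mean CPM the rise was smaller in chronic cells for Gbp7, Irf1 and Irgm1 but larger for Igtp, Gbp2b, Iigp1, Gbp3 and Gbp2, which was not tested.

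The difference between chronic and naive cells at 2 h was itself different in CT26 and YUMM2.1 for the following named genes, by a direct test. It was more positive in CT26 for Ifit3 (2.73), Gbp2 (1.39) and Mdm2 (1.08). It was more negative, or less positive, in CT26 for H2-D1 (-1.82), Ybx1 (-1.81), Mfsd10 (-1.71), Sirt5 (-1.65), Wdr31 (-1.63), Ndufa4 (-1.01), Atp5g3 (-0.98), Plk1 (-0.94) and Rps10 (-0.79). Calls of the difference were lost under 12 of 19 alternatives for Plk1, 11 for Wdr31, 10 for Mfsd10, 8 for Rps10 and 7 for Mdm2, and under none for the other genes named here. Over all genes 49 differences between the lines were called, and 16 to 30 with 1 library left out. The 3-week shift of untreated cells was not subtracted from them.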

How the results depend on the processing

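No named gene's called difference changed direction under the alternatives that were run. The 876 genes of the main comparison became 565 with the 6 libraries thinned to 1 depth, an alternative chosen after seeing the data, and 408 (without chronic replicate 2) to 870 with 1 library left out, with 502 without naive replicate 1. The 331 genes left after subtracting the 3-week shift became 581 in a fit of only the compared groups and 100 to 490 with 1 library left out. They were 111 and 183 without untreated 0-week replicates 2 and 3, 183 and 168 without untreated 3-week replicates 1 and 3, and 135 and 199 without naive replicates 1 and 3. With library totals 218 of them were higher and 27 lower, and with RLE factors 165 and 117. The 18 differences in response became 54 without a filter on low counts and 13 to 21 with 1 library left out. The 49 differences between the lines became 101 with DESeq2, 77 with library totals, 74 without the filter, 20 with only the compared groups and 16 to 30 with 1 library left out. For all but the settings with fewer samples or other genes, the cause was not tested.

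With the replicate number as a block, 917, 411, 19 and 56 genes passed in these comparisons. Deviations of same-numbered chronic and naive samples had correlations of -0.049, 0.13 and 0.026, so the numbers were not shown to pair samples. Of the genes named by rule 1 lost its call under the block, 15 without chronic replicate 2 and 13 without naive replicate 1. With a prior count of 0.5 the mean level of the GTPase list moved to 3.64 log2 CPM in naive and 6.49 in chronic cells. Medians near 0 changed sign under at least 1 of 14 alternatives for replication and mitosis (-0.11 to 0.12), heat shock (-0.08 to 0.16), keratins (-0.03 to 0.87), mitochondrially encoded transcripts (-0.01 to 0.23) and the respiratory chain (-0.22 to 0.02). Among responses, the calls of Tiparp, Tgtp2 and Irgm2 were lost under 13, 12 and 11 of 19 alternatives. The floor of 3 counts over a group was a setting and not a limit of detection. Larger differences in counts could also fail to pass, as mt-Nd3 did with 0 counts in chronic and 46 in naive cells.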

Other observations

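The immunoproteasome subunits Psmb8, Psmb9 and Psmb10 replace the constitutive catalytic subunits Psmb5, Psmb6 and Psmb7. These 3 were looked at after the values of Psmb8 to Psmb10 and the difference between the lines for Psmb5 had been seen. Psmb5 was at 83.4, 52.2 and 50 CPM in chronic cells at 2 h and at 157, 163 and 154 CPM in naive cells, with every chronic sample lower (-1.31 ± 0.21, adjusted p = 9.42e-06 by edgeR). After subtraction of the 3-week shift the difference was -0.79 (adjusted p = 0.0881). Psmb6 (0.05 ± 0.11, adjusted p = 0.831) and Psmb7 (-0.13 ± 0.11, adjusted p = 0.509) did not pass. In the fit of both lines Psmb5 differed by -1.34 in CT26 and -0.19 in YUMM2.1, a difference of -1.15 (adjusted p = 0.0402).

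Soat1, which esterifies cholesterol, and Plin2, which coats lipid droplets, were also picked from the genes that differed between the lines. Soat1 was at 93, 109 and 122 CPM in chronic and 44.5, 38.4 and 49.4 CPM in naive cells (1.27 ± 0.23, adjusted p = 0.000121), and 1.10 after subtraction of the 3-week shift (adjusted p = 0.0459). Plin2 was at 103, 96.6 and 153 CPM against 65.8, 48.7 and 55.4 CPM (1.03 ± 0.20, adjusted p = 0.000273), and 0.23 after subtraction (adjusted p = 0.682). Gpnmb, a lysosomal glycoprotein listed here as a melanocyte marker, was at 40.9, 40 and 47.5 CPM against 15.5, 14.8 and 26.7 CPM (1.16 ± 0.22, adjusted p = 0.000298), with -0.34 left after subtraction (adjusted p = 0.568).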
